A study of Rattus norvegicus with 311 samples.

Results

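Keratins are the intermediate filament proteins of epithelial cells, and each filament pairs a type I (acidic) chain with a type II (basic) chain. Hepatocytes of the adult liver are known for the pair Krt8 (type II) and Krt18 (type I), while bile duct cells also hold Krt7 (type II) and Krt19 (type I). Krt23, a type I chain, is known as a keratin of the ductular reaction of injured liver, and most other keratins belong to skin, hair, cornea or gut. The keratin family was taken here as every probe of the count table whose gene name is Krt followed by a number. This gave 53 probes for 47 of 20924 gene symbols, of 22253 probes in all. Of these probes, 6 belong to the liver epithelium keratins Krt7 (2 probes), Krt8, Krt18, Krt19 and Krt23, and 47 to other keratins. By chain type, 27 probes are type I, 25 are type II and 1 (Krt222) is in neither class.

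The data are TempO-Seq counts, in which a pair of DNA detector oligos is ligated on its target RNA and the ligated products are sequenced and counted, so each probe reads a short stretch of its transcript. Primary hepatocytes of male Sprague Dawley rats were cultured alone (monoculture) or with liver non-parenchymal cells (co-culture) on collagen-coated 96-well plates, and wells were sampled on day 1, 3 or 7 after plating, after 24 h of exposure. The exposures were a vehicle control, for which no solvent is named, phenobarbital at 0.1, 1 or 10 mM, ketoconazole at 1, 10 or 30 uM, GW7647 at 0.01, 0.1 or 1 uM and gemfibrozil at 10, 100 or 1000 uM. Library descriptions write UT for the vehicle wells, so whether they held a solvent is not known here. GW7647 and gemfibrozil are known to activate PPAR-alpha, phenobarbital acts through the receptor CAR, and ketoconazole is an azole antifungal. The libraries (156 of monoculture and 155 of co-culture) form 78 groups by culture, day and exposure, of which 65 hold 4 libraries, 7 hold 3 and 6 hold 5. A library's replicate number is its plate number (1, 3, 5, 7 or, on day 3, 9). In the labels each exposure of day 1 held the same well on plates 1, 3, 5 and 7, with vehicle in the first wells. Days 3 and 7 followed in later wells of these plates. Exposure and day therefore cannot be told apart from well position. The labels call the replicates biological without saying that they come from separate animals, so the p-values below reflect only how these libraries scatter, which can be technical.

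Stretches upstream of the start of 5 keratin genes are shown because Krt8 and Krt18 fell together with days in culture while Krt23 and Krt12 rose, and because Krt20 moved with the plate. Each is the 150 bases before the annotated start in RefSeq (GRCr8), written 5′ to 3′ on the gene's strand, and capitals mark matches to the motifs named after them.
Krt8, chr7:135010340-135010489, minus strand: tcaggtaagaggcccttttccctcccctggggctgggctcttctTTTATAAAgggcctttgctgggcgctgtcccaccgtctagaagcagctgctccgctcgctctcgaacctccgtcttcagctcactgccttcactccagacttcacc
Krt18, chr7:135036018-135036167, plus strand: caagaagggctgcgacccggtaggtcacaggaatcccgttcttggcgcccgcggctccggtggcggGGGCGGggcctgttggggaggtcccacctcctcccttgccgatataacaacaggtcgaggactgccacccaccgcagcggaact
Krt23, chr10:84946930-84947079, minus strand: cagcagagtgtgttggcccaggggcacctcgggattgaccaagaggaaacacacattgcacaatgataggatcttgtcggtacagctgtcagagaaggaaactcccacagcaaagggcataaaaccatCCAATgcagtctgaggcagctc
Krt20, chr10:84890286-84890435, minus strand: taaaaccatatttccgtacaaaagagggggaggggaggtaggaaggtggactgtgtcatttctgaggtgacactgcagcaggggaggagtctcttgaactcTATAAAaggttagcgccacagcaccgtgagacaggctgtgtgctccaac
Krt12, chr10:84874266-84874415, minus strand: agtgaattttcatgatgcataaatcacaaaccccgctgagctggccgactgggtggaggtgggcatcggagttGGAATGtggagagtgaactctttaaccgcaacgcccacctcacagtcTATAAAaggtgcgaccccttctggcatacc

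Both strands were searched for TATAAA (known as the TATA box), GGGCGG (a GC box), TGANTCA (an AP-1 site), GGAATG (a TEAD site) and the CCAAT box. TATAAA was found upstream of Krt8, where matches on both strands overlap (106 to 101 and 104 to 99 bases before the start). It was also found upstream of Krt20 (49 to 44 bases before) and of Krt12 (30 to 25 bases before). The stretch of Krt18, a neighbour of Krt8 on chromosome 7, held GGGCGG (84 to 79 bases before the start) and no TATAAA. Krt23 held CCAAT (22 to 18 bases before the start), and Krt12 also held GGAATG (77 to 72 bases before). Of 33469 upstream stretches of the same length, 8% held TATAAA, 23.5% CCAAT, 26% GGGCGG, 3.69% TGANTCA and 7.4% GGAATG. These matches describe the letters only, and the files hold no measure of factor binding. Krt23, Krt20 and Krt12 lie close together on chromosome 10. Krt7, Krt19, Krt80 and Krt17 were not among the sequences used here, and Krt79, which had 3 entries there, is not shown.

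Most keratins of skin and hair gave almost no counts in these cultures. A probe was tested only where the filter on low counts kept it (edgeR's filterByExpr with a minimum count of 10), which kept 15 of the 53 keratin probes in at least 1 comparison. These are the 6 liver epithelium probes and 9 others, namely Krt80, Krt17, Krt12, Krt15, Krt79, 2 probes each of Krt20 and of Krt78. The other 38 probes passed no filter and gave a count in 1 to 73 libraries, 34 of them in fewer than 20, and their highest count in a library was 37. The epidermal pairs were at this level. Krt5 had a count in 1 library with each of its 2 probes, its partner Krt14 in 15, Krt1 in 6, Krt10 in 42 (37 of them of day 7), Krt2 in 73, Krt9 in 6, Krt77 in 4, the hair follicle keratin Krt75 in 2, Krt16 in 9 and Krt24 in 8. The mucosal keratins Krt4, Krt13 and Krt76 had a count in 3, 14 and 6 libraries. The hair and inner root sheath keratins had counts in few libraries as well. These were Krt25 (5), Krt26 (3), Krt27 (4), Krt28 (4), Krt31 (14), Krt32 (7 and 8 with its 2 probes), Krt34 (3), Krt35 (4), Krt36 (11), Krt39 (4), Krt40 (7), Krt71 (9), Krt72 (3), Krt73 (10), Krt81 (12 and 8), Krt82 (9), Krt83 (12), Krt84 (2), Krt85 (14) and Krt86 (6). Krt42 had a count in 32 libraries and Krt222 in 31. None of these is compared between groups, and a low count here does not show that a transcript was absent.

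The total counts per library ran from 412414 to 12272575 (median 6054414), and 1 library, of ketoconazole 30 uM on day 7, held fewer than 1000000. Libraries held a count for 5846 to 15538 probes (median 12801). No pair of libraries was identical. The labels conflict in places, and the treatment of each library follows its description. The 33 monoculture libraries described as phenobarbital carry a compound label of ketoconazole. The fold changes of those at the highest dose ranked across 14824 probes more like those of co-culture phenobarbital 10 mM (Spearman's rho 0.695, 0.529 and 0.764 on days 1, 3 and 7) than like those of co-culture ketoconazole 30 uM (0.481, 0.513 and 0.502) or 10 uM (0.145, 0.298 and 0.280), over probes, which are not independent replicates. On day 3 the values for phenobarbital and ketoconazole 30 uM were too close to settle the label of that day. In addition, 3 co-culture libraries of day 3 described as GW7647 0.1 uM carry a dose label of 1 microM. The dose labels of phenobarbital give microM as the unit, while the design text gives mM. The mM unit was used throughout, and the labels do not settle it. Levels are given as CPM, the counts per 1000000 counts of a library, scaled over all libraries together. A level is compared only with levels of the same probe, since probes differ in efficiency. Unless stated, tests are edgeR's quasi-likelihood test with Benjamini-Hochberg adjustment over all probes of the fit, errors on log2 fold changes are standard errors, and a call is an adjusted p under 0.05.

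Krt8 and Krt18, the hepatocyte pair, were detected in every library and fell between day 1 and day 7 in vehicle wells of both cultures. In monoculture, Krt8 measured 16888, 21294.5, 28682 and 18315.5 CPM on day 1 (plates 1, 3, 5 and 7), then 16031, 13675, 12275 and 18271 on day 3 and lastly 3150, 7845, 1630 and 7476 on day 7. In co-culture it measured 15988.5, 20716, 20594.5 and 13836 CPM on day 1, then 13991, 6782, 6203 and 8832 on day 3 and lastly 2654, 4692, 3358 and 5782 on day 7. Every day 7 library was below every day 1 library of its culture, while day 3 overlapped day 1 in both cultures, in co-culture through plate 1 alone. The log2 fold change of day 7 against day 1 was -1.98 ± 0.44 in monoculture (edgeR adjusted p = 0.00268) and -2.06 ± 0.44 in co-culture (adjusted p = 0.00198). Krt18 moved with its partner. In monoculture it measured 6090, 5916, 11086 and 7104 CPM on day 1, then 6408, 5294, 5962 and 8444 on day 3 and lastly 1162, 1468, 574 and 3607 on day 7. In co-culture it measured 7049, 7982, 10502 and 7346 CPM on day 1, then 6474, 3853, 3818 and 5147 on day 3 and lastly 657, 1080, 1354 and 3285 on day 7. Again no day 7 library reached the day 1 or day 3 range of its culture, and plate 7 was the highest on day 7. The fold change against day 1 was -2.06 ± 0.48 in monoculture (edgeR adjusted p = 0.00382) and -2.31 ± 0.48 in co-culture (adjusted p = 0.00159). Against day 3, Krt18 fell by 1.91 ± 0.48 in monoculture (edgeR adjusted p = 0.0121) and by 1.63 ± 0.47 in co-culture (adjusted p = 0.0212) on the log2 scale. Krt8 fell by 1.54 ± 0.43 in monoculture (adjusted p = 0.0208), and in co-culture its log2 fold change was -1.15 ± 0.43 (adjusted p = 0.0605). Without plate 5 the day 7 against day 1 call of Krt18 in monoculture was lost (adjusted p = 0.0646). The day 7 against day 3 calls were lost without plate 1, 3 or 5 for Krt18 in both cultures, without plate 1, 5 or 7 for Krt8 in monoculture, and with the number of detected probes as a covariate for all 3, at adjusted p from 0.0509 to 0.416. Detected probes in vehicle monoculture ran from 11993 to 13449, 8459 to 13115 and 13587 to 14764 on days 1, 3 and 7. In vehicle co-culture they ran from 11943 to 13429, 9702 to 11577 and 13281 to 14910. Where these ranges do not overlap, the covariate cannot be told apart from day, and losses under it decide nothing here or below.

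**Figure D1:**
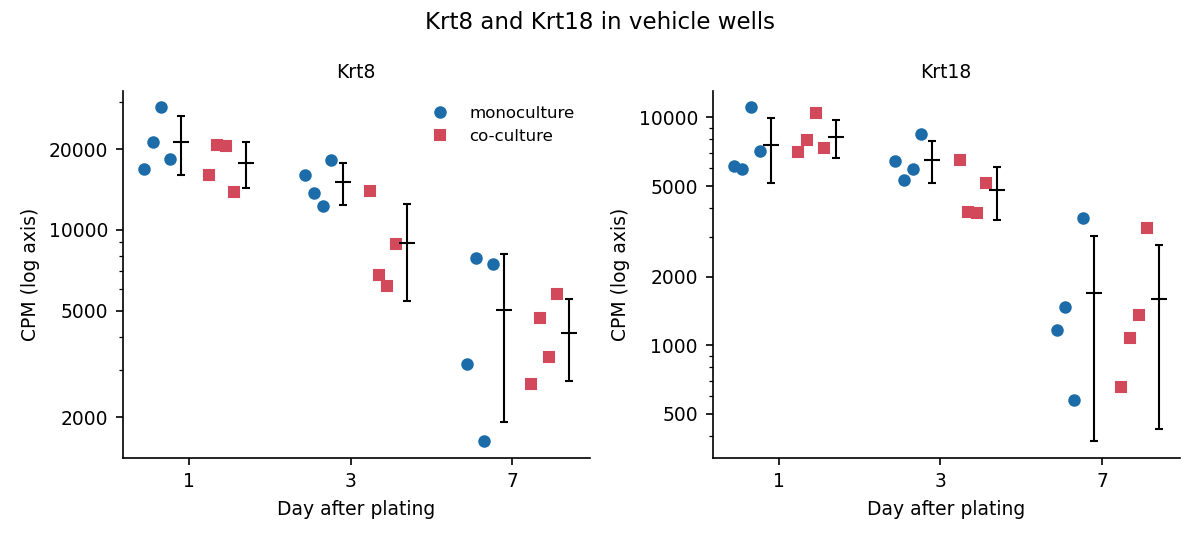
CPM of Krt8 and Krt18 on a log axis by day after plating in vehicle wells, with a circle (monoculture) or square (co-culture) per library and the mean ± SD of 4 libraries in black. All day 7 libraries lie below all day 1 libraries of the same culture, for Krt8 between 1630 and 7845 CPM.

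The balance of the pair was also measured within each library as the log2 ratio of the Krt8 CPM to the Krt18 CPM, whose change is interpretable though its level depends on the probes. In vehicle monoculture it was 1.51 ± 0.23 on day 1, 1.21 ± 0.16 on day 3 and 1.60 ± 0.58 on day 7 (SD, n = 4). In vehicle co-culture it was 1.11 ± 0.21, 0.85 ± 0.18 and 1.56 ± 0.61. Over all wells of both cultures it was 1.18 ± 0.40, 0.83 ± 0.51 and 1.37 ± 0.51 and ranged from -0.41 to 2.96, from -0.80 to 1.88 and from 0.15 to 2.51 on days 1, 3 and 7. Because the compounds are pooled in the last values, they are a description and were not tested.

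The keratins of bile duct and ductular cells went the other way and rose from near 0. Krt7 (probe 38640) had no count in any vehicle library of day 1 or day 3. On day 7 it measured 3.44, 7.49, 3.98 and 3.39 CPM in monoculture and 2.98, 9.40, 3.30 and 4.70 CPM in co-culture. All 8 day 7 libraries were therefore above all earlier ones. This probe passed the filter on low counts through day 7 alone, so its adjusted p-values between days carry that selection. With the empty day 1 group set to a floor of 3 counts in all, day 7 was at least 38.9-fold higher in monoculture (120 counts on day 7, edgeR adjusted p = 0.000903). The co-culture bound was 38.7-fold (134 counts, adjusted p = 0.000878). Without the largest library these bounds were 30.8 and 30.1. Against day 3 the bounds were 26.2 (adjusted p = 0.00430) and 22.3 (adjusted p = 0.00388), and both calls were lost with the number of detected probes as a covariate (adjusted p = 0.0903 and 0.235). As said above, that covariate cannot be told apart from day in this comparison. The other Krt7 probe (34778) was too low to be tested in vehicle wells. It measured 0.150, 0.624, 0.995 and 0.813 CPM in monoculture and 0.284, 0, 1.39 and 0.107 CPM in co-culture on day 7. Before that, it had a count only in monoculture plate 1 on day 1 (0.558 CPM) and co-culture plate 5 on day 3 (1.15 CPM). Over all wells both Krt7 probes had a count in 0 of 104 libraries on day 1, 1 of 104 on day 3 and 70 of 103 on day 7, so both show the transcript mainly on day 7.

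Krt19, the bile duct keratin that lacks most of the tail domain, rose less steeply. In monoculture it measured 1.53, 0, 0 and 0 CPM on day 1, then 0, 0.223, 6.09 and 1.06 on day 3 and lastly 8.52, 1.56, 1.66 and 14.2 on day 7. In co-culture it measured 1.01, 0, 0 and 0 CPM on day 1, then 3.07, 0, 2.87 and 1.99 on day 3 and lastly 4.83, 1.50, 9.03 and 9.92 on day 7. The day 1 counts were all on plate 1, the day 3 values overlapped both other days, and all day 7 values were above all day 1 values of the same culture. The log2 fold change of day 7 against day 1 was 4.01 ± 1.41 in monoculture (edgeR adjusted p = 0.0426) and 4.67 ± 1.51 in co-culture (adjusted p = 0.0283). Both calls were lost without plate 3, 5 or 7 and with the number of detected probes as a covariate, at adjusted p from 0.0627 to 0.256.

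Krt23 was near 0 on days 1 and 3 and rose by day 7. In monoculture it measured 0.418, 0.859, 0 and 0 CPM on day 1, then 0, 0, 2.31 and 0 on day 3 and lastly 1.35, 4.84, 11.4 and 3.66 on day 7. In co-culture it had a count in plate 5 alone on day 1 (0.333 CPM), none on day 3, and measured 1.42, 5.83, 15.3 and 5.23 CPM on day 7. The lowest day 7 library was that of plate 1 and the highest that of plate 5 in both cultures, and no day 7 library overlapped day 1. The log2 fold change of day 7 against day 1 was 3.99 ± 1.31 in monoculture (edgeR adjusted p = 0.0331). In co-culture 178 counts stood against 3, a ratio of 51.4 (95% exact counting interval 17.3 to 252, which covers counting error only; edgeR adjusted p = 0.00842). Against day 3 in co-culture, where all 4 libraries had 0 counts, it was at least 29.7-fold higher (adjusted p = 0.00936), or at least 19.0-fold without the largest library. The monoculture call was lost without any 1 of the plates and with the number of detected probes as a covariate (adjusted p from 0.0523 to 0.289). The co-culture calls were lost without plate 3 against day 1 (adjusted p = 0.0565) and with that covariate against day 3 (0.408). Like Krt7, Krt23 passed the filter through day 7 alone, and its calls between days carry that selection.

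Krt12, a type I keratin known from the cornea, followed the same course. No vehicle library of day 1 held a count, and on day 3 it was counted in monoculture plate 3 (0.669 CPM) and co-culture plate 1 (3.45 CPM) alone. On day 7 it measured 2.69, 6.86, 0.166 and 5.01 CPM in monoculture and 2.56, 4.51, 0.868 and 3.63 CPM in co-culture. Plate 5 was the lowest on day 7 in both cultures, but all 8 libraries were above the 0 of day 1. Against day 1 it was at least 32.4-fold higher in monoculture (100 counts, edgeR adjusted p = 0.00970), and the co-culture bound was 23.4-fold (81 counts, adjusted p = 0.0139). Without the largest library the bounds were 23.9-fold and 20.6-fold. The call was lost without plate 3 in monoculture (adjusted p = 0.0550) and without plate 3 or 7 in co-culture (0.0508 and 0.0842). As Krt12 too passed the filter through day 7 alone, these calls carry that selection.

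**Figure D2:**
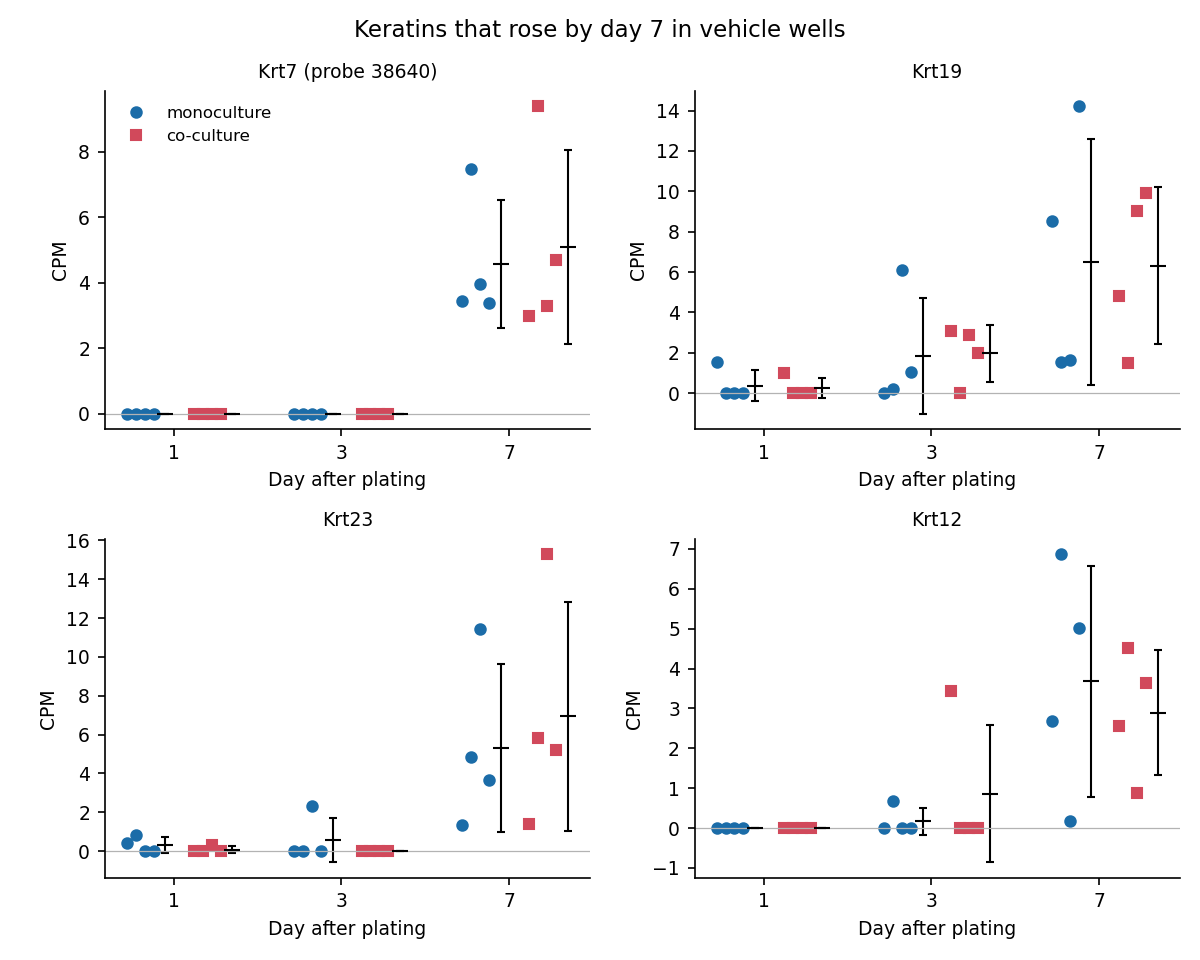
CPM of Krt7 (probe 38640), Krt19, Krt23 and Krt12 by day after plating in vehicle wells, with a circle (monoculture) or square (co-culture) per library and the mean ± SD of 4 libraries in black. Krt7 is at 0 in all libraries of days 1 and 3 and between 2.98 and 9.40 CPM on day 7.

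In counts, 6 of the 10 keratin probes tested in vehicle wells changed between day 1 and day 7 in each culture, 4 higher and 2 lower. Over all 11823 probes, 13.7% were called higher and 8.75% lower in monoculture, and 15.2% and 7.56% in co-culture. At an unadjusted p under 0.05 there were 7 keratin probes in monoculture and 6 in co-culture, and DESeq2 called 6 in each. The median log2 fold change of the 10 keratin probes was 2.56 in monoculture and 1.40 in co-culture, beside 0.24 and 0.22 over all probes. Krt7, Krt23 and Krt12 passed the filter on low counts through their day 7 libraries alone, so this count and median carry that selection and support nothing. Between day 3 and day 7, 3 keratin probes changed in each culture, 1 higher and 2 lower in monoculture and 2 higher and 1 lower in co-culture. All probes gave 8.14% higher and 7.54% lower in monoculture, and 11.8% and 6.69% in co-culture. The higher calls were of Krt7 and Krt23, which passed the filter through day 7 alone, so nothing is read from this count either. At an unadjusted p under 0.05 there were 5 keratin probes in each culture, and DESeq2 called 4 and 5. With the plate as a block, 5 keratin probes changed in monoculture, adding Krt12 (4.27 ± 1.45, adjusted p = 0.0431) and Krt23 (3.79 ± 1.18, adjusted p = 0.0269). Without plate 1 or plate 5, 1 was left in monoculture. Between day 1 and day 3 no keratin probe passed in either culture (3 at an unadjusted p under 0.05 in each, 0 by DESeq2), while 2.52% of all probes passed in monoculture and 9.06% in co-culture. The change with time did not pass the test for a difference between the cultures for any probe (0% of probes for day 3 and for day 7 against day 1, with 364 and 34 probes at an unadjusted p under 0.05).

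Krt20, a type I keratin known from the gut and urothelium, differed between plates on days 1 and 3. With probe 47877, vehicle monoculture measured 4.46, 0.859, 0.182 and 0 CPM on day 1 (plates 1, 3, 5 and 7), then 38.4, 9.14, 3.57 and 3.19 on day 3 and lastly 8.22, 16.1, 0.83 and 16.9 on day 7. Vehicle co-culture measured 12.3, 0.432, 0 and 0 CPM on day 1, then 44.1, 3.02, 3.16 and 1.74 on day 3 and lastly 3.41, 6.39, 5.38 and 9.50 on day 7. Plate 1 was the highest library of its group on days 1 and 3 in both cultures, and on day 7 it was not. The second probe (48881) was also highest on plate 1 on day 1, with 5.16, 0.572, 0 and 0 CPM in monoculture and 5.67, 0, 0 and 0 CPM in co-culture. On day 3 it measured 6.94, 5.13, 2.94 and 3.01 CPM in monoculture and 17.6, 4.67, 2.59 and 1.99 CPM in co-culture, and on day 7 4.64, 7.64, 0.995 and 11.9 CPM and 2.98, 3.39, 3.47 and 9.18 CPM. Over all wells, treated ones included, the median of probe 47877 was 2.42 CPM on plate 1 and 0 on the other plates on day 1. On day 3 it was 13.8 CPM on plate 1, 3.02 on plate 3 and 1.07 to 1.25 on plates 5, 7 and 9, and on day 7 it was 8.22, 10.1, 3.30 and 8.75 CPM on plates 1, 3, 5 and 7. Both probes had a count together in 31 of 104, 74 of 104 and 95 of 103 libraries on days 1, 3 and 7.

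**Figure D3:**
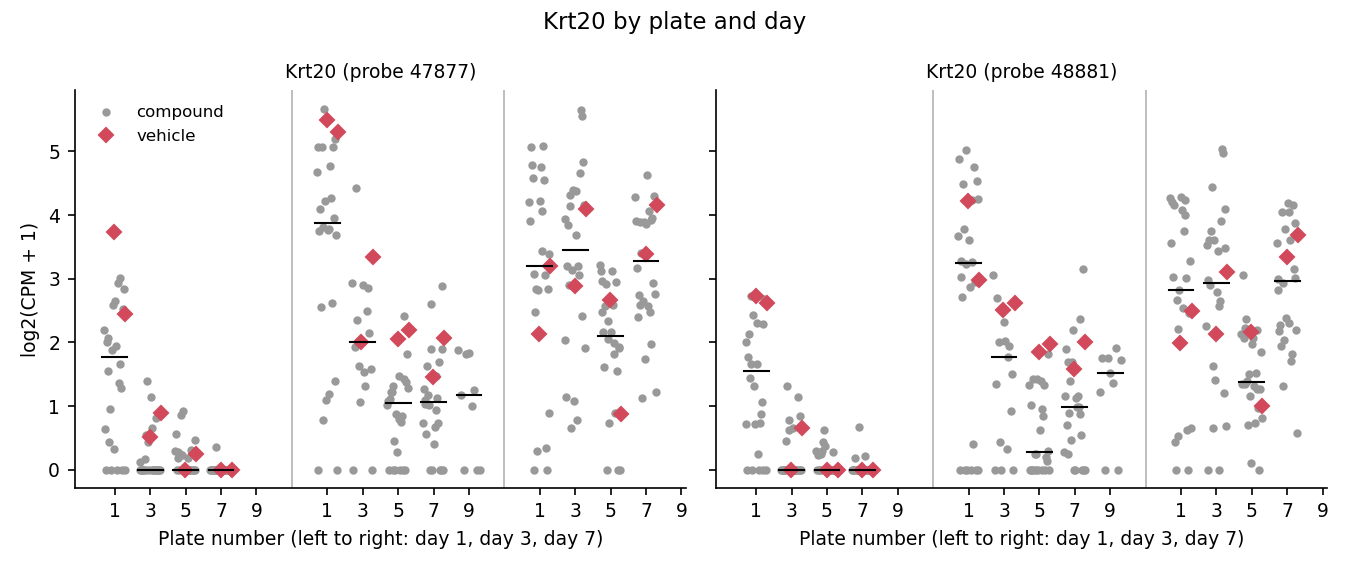
Level of both Krt20 probes as log2(CPM + 1) in every library by plate number, with days 1, 3 and 7 from left to right, vehicle libraries as red diamonds, compound libraries as grey circles and the median as a bar. Plate 1 holds the highest values on days 1 and 3, with a day 3 median of 13.8 CPM for probe 47877 against 1.07 to 3.02 on the other plates.

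With all plates in the fit and no plate block, Krt20 did not pass the test between days. The log2 fold change of day 7 against day 1 was 2.96 ± 1.40 in monoculture (edgeR adjusted p = 0.128) and 1.00 ± 1.32 in co-culture (0.615) with probe 47877, and 2.16 ± 1.27 (0.228) and 1.81 ± 1.28 (0.319) with probe 48881. Without plate 1 all 4 values passed, at 4.99 ± 1.15 (edgeR adjusted p = 0.00821) and 5.75 ± 1.29 (0.00612) with probe 47877, and 5.03 ± 1.16 (0.00963) in monoculture with probe 48881. In co-culture probe 48881 (adjusted p = 0.00301) then had no count left on day 1, so its fitted change depends on the prior count and is not given. With plate 1 left out, both probes were so low on day 1 that they passed the filter through later days, and these calls carry that selection. The day 3 against day 1 values in co-culture passed too without plate 1, at 4.36 ± 1.31 (adjusted p = 0.0426) with probe 47877. Probe 48881 (adjusted p = 0.00993) was again fitted against the empty day 1 group. With the plate as a block the day 7 against day 1 values were 4.23 ± 1.13 (adjusted p = 0.00772) and 3.24 ± 1.10 (0.0304) with probe 47877, and 3.41 ± 1.17 (0.0312) and 3.48 ± 1.20 (0.0327) with probe 48881. What sets plate 1 apart was not tested.

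Of the remaining keratins, Krt80 and Krt79 were tested between days in vehicle wells and did not pass, while Krt17, Krt15 and Krt78 were too low there to be tested. Krt80, a type II keratin of simple and stratified epithelia, was detected in 100, 102 and 102 of 104, 104 and 103 libraries on days 1, 3 and 7. In vehicle monoculture it measured 6.69, 9.30, 5.10 and 6.22 CPM on day 1, then 31.8, 12.7, 10.1 and 8.67 on day 3 and lastly 17.9, 16.7, 3.65 and 18.8 on day 7. In vehicle co-culture it measured 11.9, 3.89, 4.21 and 3.81 CPM on day 1, then 14.2, 15.4, 8.62 and 4.23 on day 3 and lastly 5.82, 7.52, 6.08 and 15.5 on day 7. The days overlapped in both cultures, and the day 7 against day 1 values of 1.17 ± 0.57 (edgeR adjusted p = 0.138) and 0.60 ± 0.57 (0.464) did not pass. Krt79, a type II keratin of hair follicle and sebaceous epithelium, measured 7.11, 2.43, 2.01 and 0.818 CPM on day 1, one value of 1.05 CPM (plate 5) on day 3, and 1.50, 0.312, 1.49 and 0.407 CPM on day 7 in vehicle monoculture. In vehicle co-culture it measured 2.43, 0.216, 3.11 and 3.43 CPM on day 1, one value of 1.10 CPM (plate 3) on day 3, and 1.70, 0.752, 2.08 and 11.3 CPM on day 7. It was lowest on day 3 in both, and the day 7 against day 1 values were -1.65 ± 1.12 (adjusted p = 0.299) and 0.85 ± 1.08 (0.604). Over all wells Krt79 was counted in 93, 47 and 88 libraries on the 3 days. Krt17, a type I keratin of basal and wounded epithelium, lay between 0 and 2.01 CPM in vehicle wells, was at 0 in 6 of the 8 vehicle libraries of day 7, and over all wells was counted in 62, 59 and 31 libraries. Krt15, a basal type I keratin, was counted in 1, 4 and 32 libraries, and Krt78 in 30, 26 and 74 with probe 40495 and in 9, 20 and 29 with probe 52129. In vehicle wells Krt15 and Krt78 stayed at or below 1.07 CPM.

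The same order in time held over all wells, compounds included. Krt8 had medians of 11388, 6972 and 4223 CPM on days 1, 3 and 7, and Krt18 of 5205, 3848 and 1571 CPM. Krt19 was counted in 24 of 104, 58 of 104 and 98 of 103 libraries, Krt23 in 49, 42 and 101, Krt12 in 11, 49 and 93, and Krt7 (38640) in 4, 14 and 93. Krt7, Krt19 and Krt23 were all counted in the same library in 0, 6 and 91 libraries, and none of them in 42, 25 and 2. The day 7 medians were 3.29 CPM for Krt7 (38640, highest 87.4), 4.29 for Krt19, 6.21 for Krt23 and 2.09 for Krt12. These values pool treatments and are a description.

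Cell-type markers also differed between days. In bulk cultures fewer cells of a type and less RNA per cell cannot be told apart. The summed level of 11 hepatocyte markers (among them Alb, Ttr and Hnf4a) in vehicle wells ran from 44999 to 66839 CPM on day 1 and from 4759 to 29511 CPM on day 7 in monoculture. The co-culture sums were 50302 to 105570 on day 1 and 14662 to 21852 on day 7. On day 3 the hepatocyte sums were 43776 to 93641 CPM in monoculture and 37585 to 81252 CPM in co-culture. None of the 11 was at 0, and 4 fell in monoculture and 5 in co-culture between day 1 and day 7. The sum of 12 bile duct markers (among them Epcam, Spp1 and Sox9) ran from 119 to 296 CPM on day 1 and from 951 to 2313 CPM on day 7 in monoculture, and in co-culture it went from 167 to 252 up to 983 to 2098, with 5 of 8 tested markers higher in each. On day 3 this sum was 480 to 1639 CPM in monoculture and 597 to 1483 CPM in co-culture. In vehicle wells of day 3 Krt7 (38640) had no count, and Krt7 (34778) and Krt23 each had one in 1 of 8 libraries. Krt19 was counted in 6 of 8 vehicle libraries on day 3, at up to 6.09 CPM, and in 2 of 8 on day 1. Among the markers at 0 on day 1 were Cldn4 in monoculture and Cftr and Aqp1 in co-culture. The sum of 9 mesothelial markers, a cell layer that also holds Krt7, Krt8, Krt18 and Krt19, was 1.14 to 2.62 CPM on day 1 and 12.3 to 96.4 on day 7 in monoculture, and 0.202 to 1.33 then 30.0 to 199 in co-culture, with 4 of 4 tested markers higher. With day 1 sums this low, the tested mesothelial markers passed the filter mainly through later days, so this count carries that selection and supports nothing. On day 7 Lrrn4 was at 0 in both cultures and Muc16 in monoculture. Stellate and fibroblast markers rose too, from sums of 60.1 to 372 CPM to 1064 to 11475 CPM in monoculture and from 75.8 to 236 CPM to 2776 to 15698 CPM in co-culture (6 of 6 tested markers higher). Some bile duct and stellate markers were at 0 on day 1 as well, so the counts of these lists may carry the same selection. Beside these marker counts, of all 11823 probes 1618 were called higher and 1035 lower in monoculture, and 1801 and 894 in co-culture. Macrophage marker sums went from 99.7 to 184 CPM up to 314 to 702 CPM in monoculture, and from 113 to 180 CPM up to 900 to 1826 CPM in co-culture. Liver endothelial sums overlapped between day 1 and day 7, at 12.3 to 78.2 then 8.42 to 84.6 CPM in monoculture and 16.6 to 79.6 then 32.7 to 221 CPM in co-culture. The part of these cell types in the keratin changes was not tested.

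Genes that work with keratins were read in lists chosen with earlier results of these data known. The shares of all probes called, against which the list counts stand, were 13.7% higher and 8.75% lower in monoculture and 15.2% and 7.56% in co-culture. A gene near 0 on day 1 can pass the filter through later days alone and can then only rise. The counts and medians of lists that rose may carry that selection, and nothing is read from them. Of 14 tested genes of desmosomes, hemidesmosomes and plakins, which anchor keratin filaments, 5 rose and none fell between day 1 and day 7 in each culture (median 0.49 in monoculture and 0.78 in co-culture, over all probes 0.24 and 0.22). In co-culture Pkp1 (plakophilin 1) rose by 5.25 ± 0.85 on the log2 scale (edgeR adjusted p = 0.000146), Itgb4 (the hemidesmosome integrin) by 3.19 ± 0.72 (0.00304), Macf1 by 1.68 ± 0.40 (0.00439) and Plec (plectin) by 4.95 ± 1.23 (0.00590). Of 10 tested genes of other intermediate filaments and lamins, 4 rose in monoculture and 5 in co-culture and none fell (median 2.57 and 3.04). Vim (vimentin, of mesenchymal cells) rose by 5.49 ± 0.69 in co-culture (adjusted p = 9.68e-06), Nefl by 5.24 ± 0.74 (3.99e-05), Nes by 4.04 ± 0.69 (0.000231) and Synm by 4.30 ± 0.99 (0.00345). Of 9 tested epithelial transcription factors, 3 rose in monoculture and 2 in co-culture (median -0.06 and 0.83), the latter near the share of all probes. Among these in co-culture was the bile duct factor Sox9 (4.38 ± 0.72, edgeR adjusted p = 0.000172), which is also among the bile duct markers above. Of 2 tested cornified envelope genes none rose, and the transglutaminase Tgm1 fell in co-culture (-1.24 ± 0.43, adjusted p = 0.0416; list medians -2.09 and -1.75). Of 11 tested genes of Mallory-Denk bodies, the keratin inclusions of injured hepatocytes, none rose, while 2 fell in monoculture and 1 in co-culture (median -0.49 and -0.32), the latter near the share of all probes. The last was Sqstm1, the p62 protein of these bodies (-1.84 ± 0.48, adjusted p = 0.00865).

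The presence of non-parenchymal cells was compared next. In vehicle wells 0% of probes passed between co-culture and monoculture on each day, and 0, 1 and 0 of 7, 12 and 13 tested keratin probes had an unadjusted p under 0.05 on days 1, 3 and 7. Averaged over all 13 exposures, 0.288%, 0.126% and 0.117% of probes passed on the 3 days, none of them a keratin. At an unadjusted p under 0.05 there were 1, 2 and 3 keratin probes, and DESeq2 called none. Krt8 differed by -0.01 ± 0.13, -0.36 ± 0.17 and -0.16 ± 0.16 on the log2 scale (co-culture against monoculture, edgeR adjusted p of 0.713 or more), and Krt18 by 0.07 ± 0.16, -0.39 ± 0.15 and -0.18 ± 0.19 (adjusted p of 0.49 or more). On day 7 Krt7 (38640) differed by 0.76 ± 0.36 (edgeR adjusted p = 0.955), and without plate 1 this was 1.67 ± 0.33 with a call (adjusted p = 0.00296). These averages treat wells of a plate as independent, though same-plate deviations correlated at 0.292 on average on day 7. Their errors and p-values therefore measure scatter between wells, not between plates. Krt79 differed by 0.88 ± 0.31 (adjusted p = 0.623), Krt19 by 0.10 ± 0.28 and Krt23 by 0.19 ± 0.26 on day 7. For 8 of these 32 keratin values, 6 of them on day 3, a group with 0 counts in every library left no error estimate, and these give no test.

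Each dose was compared with the vehicle of the same day, averaged over both cultures, which makes 36 comparisons that share the vehicle libraries within a day. All keratin calls were of lower levels and, but for 1, at the highest dose of phenobarbital, ketoconazole or gemfibrozil. The map of log2 changes shows calls on days 1 and 3 in Krt8, Krt18, Krt80 and Krt20, on day 3 also in Krt17 and Krt19, and on day 7 in Krt7, Krt80 and Krt79 under phenobarbital. Whether responses differed between days was not tested.

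**Figure D4:**
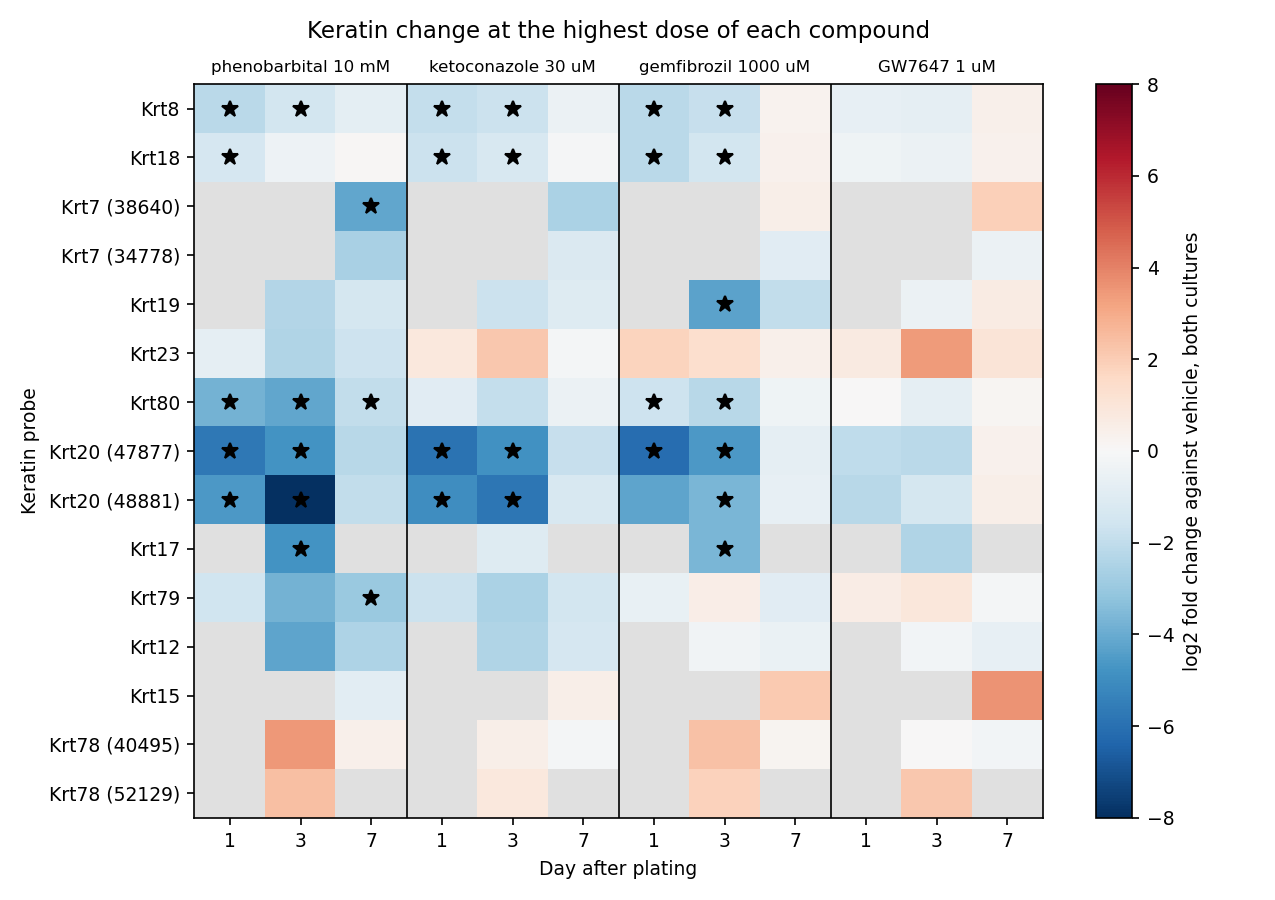
Log2 fold change against vehicle, averaged over both cultures, of the 15 tested keratin probes (rows) at the highest dose of each compound on days 1, 3 and 7 (columns), where a star marks an edgeR adjusted p under 0.05 and grey a probe that did not pass the filter. All stars are on lower levels; fitted values of groups with 0 counts, such as Krt20 (48881) under phenobarbital on day 3, depend on the prior count.

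Krt8 was lower under phenobarbital at 10 mM on days 1 and 3. On day 1 the vehicle libraries lay at 13836, 19455 and 28682 CPM (lowest, median and highest of 8), and Krt8 under phenobarbital measured 4396, 3285, 4056 and 5292 CPM in monoculture and 4316, 3787, 5001 and 4617 CPM in co-culture. These 8 values lay close together and all below the vehicle range. The log2 fold change was -2.13 ± 0.34 (edgeR adjusted p = 3.43e-06). Krt18 measured 2136, 1043, 2046 and 5548 CPM in monoculture and 2035, 1364, 3695 and 6133 CPM in co-culture, against 5916, 7225 and 11086 CPM in vehicle wells. Only a plate 7 library reached the vehicle range, and each library was below the vehicle library of its plate and culture (8 of 8). Its fold change was -1.37 ± 0.41 (adjusted p = 0.0127). Krt80 was at 0, 0.421 and 1.56 CPM against 3.81, 5.66 and 11.9 CPM in vehicle wells, with no overlap and a fold change of -3.79 ± 0.58 (adjusted p = 1.39e-06). Krt20 fell too, with 2 counts against 102 with probe 47877, a ratio of 0.0150 (95% exact counting interval 0.00180 to 0.0557), and a fitted change of -4.62 ± 1.63 with probe 48881 (adjusted p = 0.0150 and 0.0388). Plate 1 held 93 of the 102 and 65 of the 69 vehicle counts of these probes, so the vehicle level on day 1 rested on that plate, and without it neither probe passed the filter. In all, 5 of 7 tested keratin probes were lower, both probes of the 1 gene Krt20 among them, where 7.77% of all probes were called lower (6 keratin probes at an unadjusted p under 0.05, 4 called by DESeq2). Calls were lost for Krt18 without plate 1, 3 or 5 (adjusted p from 0.0572 to 0.125), for Krt20 (47877) without plate 3 or 5 (0.0596 to 0.0909) and for Krt20 (48881) without plate 3, 5 or 7, by DESeq2 and without the filter (0.0518 to 0.142). Krt79 was also called lower with the plate as a block (-1.65 ± 0.62, adjusted p = 0.0431).

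On day 3 Krt8 under phenobarbital 10 mM measured 4377, 5921 and 3887 CPM in monoculture and 3655, 6119 and 1661 CPM in co-culture (plates 1, 5 and 7), against 6203, 12975 and 18271 CPM in vehicle wells (lowest, median and highest of 8). The groups did not overlap, though the highest phenobarbital library came near the lowest vehicle library, and the log2 fold change was -1.46 ± 0.47 (edgeR adjusted p = 0.0264). Krt18 did not pass, at 1186, 3165 and 10341 CPM against 3818, 5628 and 8444 CPM (-0.39 ± 0.40, adjusted p = 0.553). Plate 5 was the highest for Krt18 in both cultures. Krt80 lay at 0, 0.393 and 2.57 CPM against 4.23, 11.4 and 31.8 CPM, again without overlap (-4.19 ± 0.82, adjusted p = 0.000145). Krt20 (48881) had no count in any of the 6 libraries, at least 62.0-fold below vehicle (adjusted p = 0.00142), and probe 47877 reached at most 1.43 CPM where the lowest vehicle library had 1.74 CPM (-4.76 ± 1.46, adjusted p = 0.0200). Krt17 had 1 count against 35 in vehicle wells, a ratio of 0.0232 (95% exact counting interval 0.000571 to 0.138, adjusted p = 0.0226). Together 5 of 12 tested keratin probes were lower, both Krt20 probes among them, where 7.55% of all probes were called lower (8 keratin probes at an unadjusted p under 0.05, 6 called by DESeq2). With the plate as a block 9 were called, adding a lower level of Krt19 (-3.55 ± 1.15, edgeR adjusted p = 0.0165). A higher level of Krt78 was added too (40495, 4.82 ± 1.51, 0.0151, without the block 3.50 ± 1.60 and 0.138). The other additions were lower levels of Krt12 and Krt79 (adjusted p = 0.0496 and 0.0425), which had no count in the 6 phenobarbital libraries. Their vehicle counts were only 12 and 9, each in 2 of 8 libraries, so the fitted changes depend on the prior count and are not given. The calls of Krt8, Krt17 and Krt20 (47877) were lost without plate 1 or 7, the first 2 also without plate 5 and the last also with the number of detected probes as a covariate, at adjusted p from 0.0690 to 0.326.

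By day 7 the keratins lower under phenobarbital 10 mM were Krt7, Krt80 and Krt79. Krt7 (38640) measured 0, 0, 0.378 and 0 CPM in monoculture and 1.33, 0, 0.164 and 0.351 CPM in co-culture, all below the lowest vehicle library of 2.98 CPM (-4.18 ± 1.05, edgeR adjusted p = 0.00808). The other Krt7 probe reached at most 0.246 CPM, against up to 1.39 CPM in vehicle wells, and did not pass (-2.56 ± 0.89, adjusted p = 0.0678). Krt80 lay at 0.0820, 2.00 and 8.73 CPM against 3.65, 11.5 and 18.8 CPM (-1.95 ± 0.55, adjusted p = 0.0189), with overlap and 7 of 8 libraries below the vehicle of their plate. Krt79 lay at 0, 0.0417 and 0.773 CPM against 0.312, 1.49 and 11.3 CPM (-2.96 ± 0.83, adjusted p = 0.0189), with overlap and 8 of 8 below. Krt8 lay at 595, 2189 and 5464.5 CPM against 1630, 4025 and 7845 CPM (-0.80 ± 0.41, adjusted p = 0.246) and Krt18 at 425, 1195 and 4920 CPM against 574, 1258 and 3607 CPM (0.12 ± 0.47, 0.911), both within the vehicle spread in part. Krt19 (-1.38 ± 0.73, adjusted p = 0.266) and Krt23 (-1.68 ± 0.67, 0.121) did not pass, at medians of 2.22 and 1.50 CPM against 6.68 and 5.03 CPM. In all, 3 of 13 tested probes were lower, where 3.28% of all probes were called lower (8 keratin probes at an unadjusted p under 0.05, 5 called by DESeq2). With the plate as a block 6 were called, adding Krt12 (-2.26 ± 0.66, adjusted p = 0.0136), Krt20 (47877, -2.37 ± 0.66, 0.00945) and Krt7 (34778, -2.51 ± 0.88, 0.0431). The call of Krt7 (38640) was lost without plate 3 or 7 (0.0880 and 0.179), that of Krt79 without plate 3, 5 or 7 and that of Krt80 without plate 3, the last 2 also with only the compared groups in the fit (adjusted p from 0.0526 to 0.324).

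Both chains of the hepatocyte pair were lower under ketoconazole at 30 uM on days 1 and 3. On day 1 Krt8 measured 5694, 8118, 1291 and 5353 CPM in monoculture and 5427, 5471, 5308 and 4557 CPM in co-culture, and all were below the lowest vehicle library of 13836 CPM. Monoculture plate 5 was the lowest of these libraries for both chains. The log2 fold change was -1.91 ± 0.34 (edgeR adjusted p = 2.19e-05). Krt18 measured 2051, 3407, 685 and 2473 CPM and 1726, 2618, 3300 and 2697 CPM, below the lowest vehicle library of 5916 CPM, and fell by 1.73 ± 0.41 (adjusted p = 0.00132). Krt20 had 1 count against 102 with probe 47877, a ratio of 0.0111 (95% exact counting interval 0.000278 to 0.0632, adjusted p = 0.0176), and 2 against 69 with probe 48881, a ratio of 0.0328 (0.00389 to 0.123, adjusted p = 0.0379), with the vehicle counts on plate 1 as above. Here 4 of 7 tested keratin probes were lower, both Krt20 probes among them, where 9.19% of all probes were called lower (5 keratin probes at an unadjusted p under 0.05, 3 called by DESeq2). The Krt20 calls were lost without plate 3 or 5, and for 48881 also without plate 7 and by DESeq2 (adjusted p from 0.0595 to 0.0956).

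On day 3 Krt8 measured 4412, 2539, 1784 and 4915 CPM in monoculture and 4014, 4290, 2770 and 3674 CPM in co-culture under ketoconazole 30 uM, with no overlap with vehicle wells (-1.71 ± 0.43, edgeR adjusted p = 0.0116). Krt18 measured 2585, 1917, 680 and 3387 CPM and 2551, 2663, 2115 and 2330 CPM, also all below vehicle (-1.31 ± 0.37, adjusted p = 0.0335). Krt20 lay at or below 1.63 CPM with probe 47877 (-4.83 ± 1.30, adjusted p = 0.0240) and 0.386 CPM with probe 48881 (-5.77 ± 1.40, 0.00975), both without overlap. Krt19 (-1.73 ± 1.36, adjusted p = 0.530) and Krt23 (2.16 ± 1.30, 0.387) did not pass. This made 4 of 12 tested probes lower, both Krt20 probes among them, where 2.05% of all probes were called lower (6 keratin probes at an unadjusted p under 0.05, 5 called by DESeq2). Each of these calls was lost without 1 or more plates, in a way that left 0 calls without plate 3 or plate 7 and 1 without plate 1 or plate 5 (adjusted p from 0.0564 to 0.269; Krt18 also without the filter). With the plate as a block Krt19 (-2.90 ± 1.03, adjusted p = 0.0483) and Krt80 (-1.98 ± 0.50, 0.00481) were called lower too. On day 7 no keratin probe passed, where 0.146% of all probes were called lower (2 keratin probes at an unadjusted p under 0.05, 0 by DESeq2). Krt8 lay at 1042, 2795 and 6494 CPM (-0.47 ± 0.41, adjusted p = 0.608), Krt18 at 269, 1231 and 3774 CPM (-0.07 ± 0.47, 0.961), Krt7 (38640) at 0, 0.822 and 2.14 CPM (-2.50 ± 1.00, 0.208), Krt19 at 0, 1.68 and 9.42 CPM (-1.01 ± 0.74, 0.523) and Krt23 at 0, 4.70 and 14.1 CPM.

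Krt8 and Krt18 were lower under gemfibrozil at 1000 uM on days 1 and 3, with 1 plate apart. On day 1 Krt8 measured 1890, 1996, 2262 and 10255 CPM in monoculture and 2102, 4423, 1264 and 10310.5 CPM in co-culture. The plate 7 libraries were the highest in both cultures, yet all 8 were below the vehicle range (-2.15 ± 0.34, edgeR adjusted p = 7.17e-06). Krt18 measured 243, 785, 659 and 5726 CPM and 800, 1326, 498 and 3959 CPM, again highest on plate 7 and again all below vehicle (-2.15 ± 0.42, adjusted p = 0.000155). Krt80 lay at 0, 1.29 and 6.26 CPM with overlap (-1.64 ± 0.52, adjusted p = 0.0208; 7 of 8 below the vehicle of their plate). Krt20 (47877) had 1 count against 102, a ratio of 0.00901 (95% exact counting interval 0.000226 to 0.0513, adjusted p = 0.0151), and probe 48881 did not pass (-4.24 ± 1.63, adjusted p = 0.0584). Krt23 did not pass (1.79 ± 1.16, adjusted p = 0.290). In all, 4 of 7 tested keratin probes were lower, where 7.51% of all probes were called lower (5 keratin probes at an unadjusted p under 0.05, 4 called by DESeq2). The Krt80 call was lost without plate 1, 3 or 5 and with only the compared groups in the fit (adjusted p from 0.0846 to 0.182), and that of Krt20 without plate 3 or 5 (0.0614 and 0.0703).

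On day 3 more keratins were lower under gemfibrozil 1000 uM. Krt8 measured 2473, 3316, 1124, 12990 and 2348 CPM in monoculture (plates 1, 3, 5, 7 and 9) and 1493, 780, 6592 and 645 CPM in co-culture (plates 1, 5, 7 and 9). Plate 7 was again the highest in both cultures and overlapped the vehicle wells, while all 7 libraries with a vehicle library of their plate and culture were below it (-1.84 ± 0.41, edgeR adjusted p = 0.00147). Krt18 measured 1613, 3720, 690, 6347 and 1145 CPM and 1004, 467, 3976 and 727 CPM, with the same plate highest and 7 of 7 below (-1.45 ± 0.36, adjusted p = 0.00412). Krt19 lay at 0, 0 and 0.648 CPM (lowest, median and highest) against 0, 1.53 and 6.09 CPM in vehicle wells (-4.31 ± 1.49, adjusted p = 0.0321), lower in 6 of 7 pairs of a plate. Krt80 lay at 0.375, 1.91 and 7.82 CPM against 4.23, 11.4 and 31.8 CPM (-2.22 ± 0.63, adjusted p = 0.00979). Krt17 reached at most 0.486 CPM against a vehicle median of 1.25 CPM (-3.64 ± 1.24, adjusted p = 0.0291). Krt20 fell with both probes (-4.60 ± 1.23 and -3.64 ± 1.16, adjusted p = 0.00686 and 0.0207), and its highest libraries, of 1.78 and 2.71 CPM, overlapped the lowest vehicle libraries. Krt23 did not pass (1.33 ± 1.09, adjusted p = 0.386). In all, 7 of 12 tested probes were lower, both Krt20 probes among them, where 7.02% of all probes were called lower (7 keratin probes at an unadjusted p under 0.05, 8 called by DESeq2). All 7 calls were lost without plate 1 and without plate 5, those of Krt17, Krt19 and Krt20 (48881) also without plate 9, that of Krt17 also without plate 3, and those of Krt17, Krt19 and both Krt20 probes with the number of detected probes as a covariate (adjusted p from 0.0508 to 0.312). Krt17 was not called with the plate as a block (adjusted p = 0.0627).

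On day 7 gemfibrozil 1000 uM gave no call for any probe (0%; 1 keratin probe at an unadjusted p under 0.05, 0 by DESeq2, which called 6 probes in all). Krt8 lay at 2815, 4331 and 10707 CPM (0.28 ± 0.42), Krt18 at 891, 1704 and 4462 CPM (0.35 ± 0.49), Krt19 at 0, 2.29 and 2.78 CPM (-1.96 ± 0.80), Krt23 at 0.480, 6.21 and 15.7 CPM (0.42 ± 0.67) and Krt7 (38640) at 0.480, 5.15 and 22.3 CPM (0.44 ± 0.90). All of these ranges overlapped those of vehicle wells.

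GW7647 at 1 uM, the other PPAR-alpha activator, gave no keratin call on any day, where 0.352%, 0.29% and 0.0219% of all probes were called on days 1, 3 and 7 (0, 2 and 2 keratin probes at an unadjusted p under 0.05, 0 by DESeq2 on each day). Krt8 lay at 6732, 13230 and 17569 CPM on day 1 (-0.63 ± 0.33, edgeR adjusted p = 0.794), at 1596, 6267 and 16654 CPM on day 3 (-0.73 ± 0.40, 0.286) and at 2687, 4993 and 14355 CPM on day 7 (0.42 ± 0.41). Krt18 differed by -0.37 ± 0.40, -0.46 ± 0.36 and 0.35 ± 0.47 on the log2 scale on the 3 days, from medians of 6396, 3731 and 1494 CPM. Krt23 on day 3 lay at 0, 0.841 and 10.7 CPM where its vehicle libraries had a count only on monoculture plate 5 (3.41 ± 1.41, adjusted p = 0.144). On day 7 it lay at 1.42, 12.1 and 26.3 CPM (1.05 ± 0.65), and Krt19 at 2.70, 3.57 and 41.6 CPM (0.67 ± 0.71). Krt7 (38640) on day 7 measured 87.4, 3.42, 3.45 and 1.42 CPM in monoculture and 3.42, 17.2, 36.3 and 1.38 CPM in co-culture (1.89 ± 0.88), so 3 of the 8 libraries, on plates 1, 3 and 5, were above the highest vehicle library of 9.40 CPM and the others were not. None of the day 7 values passed (adjusted p of 1.00 for all).

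Below the highest doses, 1 keratin value passed. Krt8 was lower under gemfibrozil at 100 uM on day 1, at 2805, 9855 and 21999 CPM (lowest, median and highest). Vehicle wells lay at 13836, 19455 and 28682 CPM (-0.99 ± 0.33, edgeR adjusted p = 0.0363), with overlap and 7 of 8 libraries below the vehicle of their plate. Of all probes 5.5% were called lower there, and 1 of 7 keratin probes (2 at an unadjusted p under 0.05, 1 by DESeq2). The call was lost without plate 1, 3 or 7, without the filter, with the number of detected probes as a covariate and with only the compared groups in the fit (adjusted p from 0.0533 to 0.233). Krt7 (38640) on day 7 under the same dose measured 51.5, 27.7, 3.46 and 3.89 CPM in monoculture and 1.20, 16.3, 43.2 and 9.58 CPM in co-culture, 5 of 8 libraries above the highest of vehicle, without passing (1.98 ± 0.88, adjusted p = 0.430). In the other 23 comparisons of lower doses no keratin was called, and 16 of 249 keratin values had an unadjusted p under 0.05 (17 could not be fitted because a group held no count). The share of all probes called there was 0.112% and 0.0219% for ketoconazole 10 uM on days 1 and 7, 0.016% for GW7647 0.01 uM on day 1, 0.136% and 0.0521% for GW7647 0.1 uM on days 1 and 3, and 0% in the rest.

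The Krt8 medians by dose show that, for phenobarbital, ketoconazole and gemfibrozil on days 1 and 3, the highest dose had the lowest median, while the other doses followed the dose order for phenobarbital and, on day 3, ketoconazole alone. On day 1 the medians of both cultures were 16067, 13375 and 4356 CPM under phenobarbital at 0.1, 1 and 10 mM, 12734, 13844 and 5390 CPM under ketoconazole at 1, 10 and 30 uM, 12626, 10185 and 13230 CPM under GW7647 at 0.01, 0.1 and 1 uM, and 9854, 9855 and 2182 CPM under gemfibrozil at 10, 100 and 1000 uM, against 19455 CPM in vehicle wells. All dose medians of day 1 were thus below that of vehicle wells, and the lower and middle doses of each compound overlapped each other. As the vehicle libraries of day 1 held the first wells of each plate, compound and well position cannot be told apart here. On day 3 the medians were 14294, 10087 and 4132 CPM under phenobarbital, 10201, 8107 and 3844 CPM under ketoconazole, 7419, 6219 and 6267 CPM under GW7647 and 6261, 7720 and 2348 CPM under gemfibrozil, against 12975 CPM. On day 7 they were 3456, 2718 and 2189 CPM, 4983, 3972 and 2795 CPM, 4604, 3706 and 4993 CPM, and 6433, 6789 and 4331 CPM, against 4025 CPM, and all these ranges overlapped that of vehicle wells. Krt18 under gemfibrozil 100 uM on day 7 had the highest median of that day, 2953 CPM against 1258 CPM in vehicle wells, without a call (this value was chosen after it was seen). The co-culture response minus the monoculture response was also compared for each dose, and no keratin was called in these 36 comparisons (12 of 384 keratin values at an unadjusted p under 0.05, 26 could not be fitted). The share of all probes called there was 0.0219% for ketoconazole 30 uM on day 7 and 0% in the others.

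**Figure D5:**
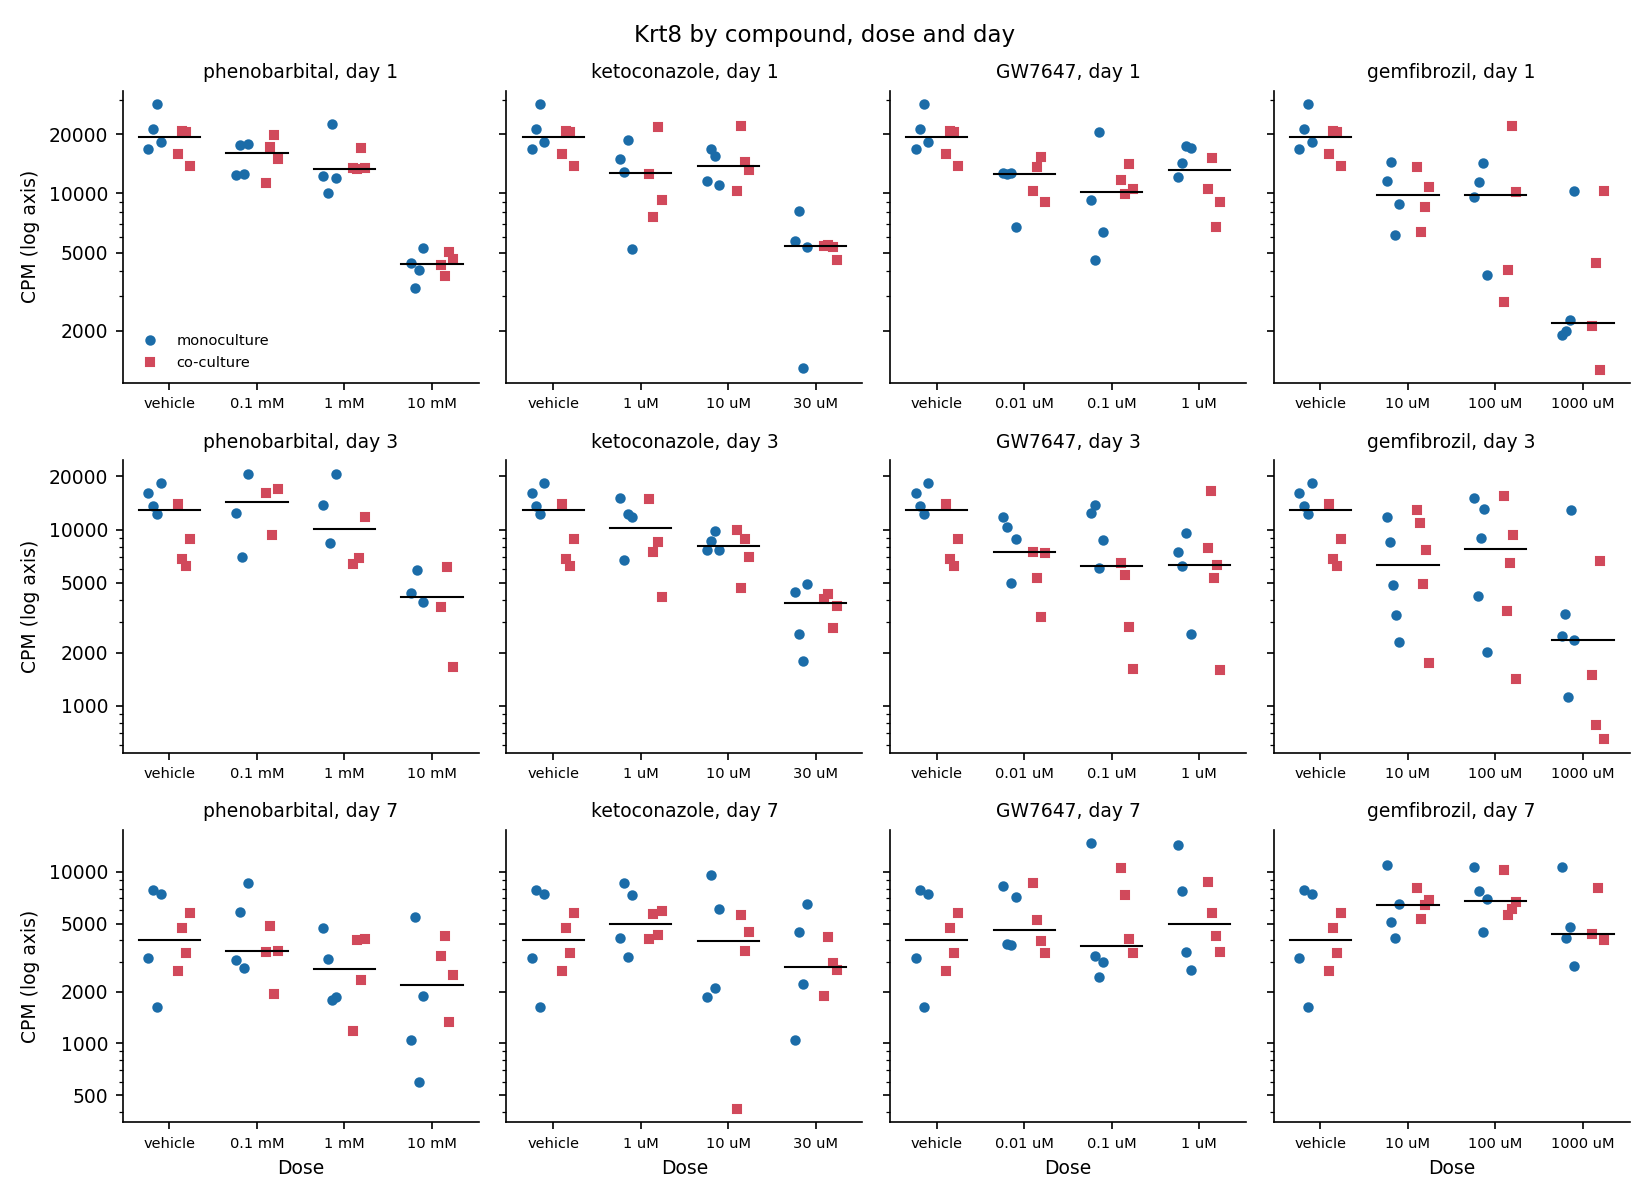
CPM of Krt8 on log axes in vehicle wells and at 3 doses of each compound (columns) on days 1, 3 and 7 (rows), with a circle (monoculture) or square (co-culture) per library and a bar at the median of both cultures. On day 1 all libraries of phenobarbital 10 mM, ketoconazole 30 uM and gemfibrozil 1000 uM lie below the lowest vehicle library of 13836 CPM.

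The same lists were counted at the highest doses. Of all probes, phenobarbital 10 mM gave 9.26%, 5.11% and 2.81% higher on days 1, 3 and 7, ketoconazole 30 uM 8.13%, 1.14% and 0.372%, and gemfibrozil 1000 uM 9.84%, 13.1% and 0%. The shares lower were those given above for each compound and day, and list counts of 1 or 2 genes are too few to set apart from these shares. Under phenobarbital 10 mM on day 1, 5 of 14 tested desmosome and plakin genes were lower and none higher, led by Jup (plakoglobin, -2.11 ± 0.35, edgeR adjusted p = 7.12e-06) and Itgb4 (-3.16 ± 0.72, 0.000927). On day 3 it was 3 lower and 1 higher of 16 (Jup -1.67 ± 0.45, adjusted p = 0.00756; Pkp1 -3.10 ± 0.88), and on day 7 2 lower of 15 (Pkp1 -1.78 ± 0.40, 0.00210; Jup -1.36 ± 0.39, 0.0206). Gemfibrozil 1000 uM gave 5 lower and 1 higher on day 1 and 3 lower on day 3, with Jup at -1.64 ± 0.35 (adjusted p = 0.000491) and -1.79 ± 0.40 (0.00123) and Pkp3 (plakophilin 3) at -1.90 ± 0.39 and -2.37 ± 0.56. Ketoconazole 30 uM gave 2 lower and 1 higher on day 1 and 1 lower on day 3, the latter Ppl (periplakin, -2.35 ± 0.68). Of the other intermediate filament genes, 2 of 10, 4 of 11 and 1 of 12 were lower under phenobarbital on days 1, 3 and 7 and none higher. Nes (nestin) was among them each day, at -3.61 ± 0.86 (adjusted p = 0.00170), -5.18 ± 0.79 (1.90e-06) and -3.01 ± 0.57 (0.000332). Ketoconazole gave 1 lower on day 1 and 1 on day 3, Lmnb1 (lamin B1) and Nefh, and gemfibrozil 4 on each of these days, Nes among them on day 3 (-2.73 ± 0.60).

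Sox9 fell under phenobarbital on each day (-3.51 ± 0.70, -4.74 ± 0.94 and -2.19 ± 0.52) and under gemfibrozil on days 1 and 3 (-2.32 ± 0.66 and -2.86 ± 0.73). Among the epithelial transcription factors 1 was higher and 2 lower under phenobarbital on day 1, 1 and 1 on day 3 and 1 and 2 on day 7, where Grhl1 (grainyhead-like 1) was the one that rose on day 3 (3.73 ± 0.86, edgeR adjusted p = 0.00133). Gemfibrozil gave 2 lower on day 1 and 1 higher and 2 lower on day 3, and ketoconazole 2 higher (Grhl1 and Klf4) and 1 lower on day 1. Of the Mallory-Denk body genes, phenobarbital gave 2 higher and 2 lower on day 1, 1 and 3 on day 3 and 2 and 1 on day 7. Sqstm1 (p62) rose by 2.19 ± 0.43 on day 3 (adjusted p = 0.000163) and by 1.66 ± 0.36 on day 7 (0.00162), while Krt8 was called lower on day 3 and not on day 7. Gemfibrozil gave 1 higher and 2 lower on day 1, with the autophagy receptor Nbr1 higher (1.49 ± 0.23, adjusted p = 3.10e-06), and 2 and 2 on day 3, and ketoconazole 1 and 1 on day 1. Of the cornified envelope genes 1 fell under phenobarbital on day 3 (the kallikrein Klk6), and Tgm1 rose on day 3 under ketoconazole and GW7647 (1.68 ± 0.42 under GW7647, adjusted p = 0.0431). On day 7 no gene of these lists passed under ketoconazole, GW7647 or gemfibrozil.

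Cell-type markers differed at these doses too. The sum of the 11 hepatocyte markers on day 1 ran from 44999 to 105570 CPM in vehicle wells, 16782 to 122379 under phenobarbital 10 mM, 10279 to 65150 under ketoconazole 30 uM and 21994 to 84314 under gemfibrozil 1000 uM. On day 3 it was 37585 to 93641 CPM in vehicle wells and 6781 to 30685, 8377 to 47856 and 9205 to 56187 under the 3 compounds in that order. The sum of the 12 bile duct markers was 119 to 296 CPM in vehicle wells on day 1 and 32.5 to 230, 61.3 to 196 and 15.2 to 202 under the compounds. On day 3 it was 480 to 1639 CPM in vehicle wells and 96.0 to 307, 416 to 1013 and 51.8 to 776 under the compounds. On day 7 it ran from 951 to 2313 CPM in vehicle wells and from 142 to 1038 CPM under phenobarbital 10 mM, beside the lower Krt7. Their part in the keratin changes was not tested.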

How the data were processed

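The deposited table holds raw counts of ligated TempO-Seq detector oligos per probe and library, which the authors aligned with Bowtie per the submitters' processing notes; the version is not given in the sources used here. Libraries held 412414 to 12272575 counts, and no column belonged to an unnamed sample (0). Each library's group followed its description. Counts were tested as deposited with edgeR 4.0.16 (limma 3.58.1, R 4.3.3): filterByExpr with a minimum count of 10, TMM scaling, quasi-likelihood F tests and Benjamini-Hochberg adjustment over all probes, called under 0.05. One fit per day held all 26 groups of that day, and one held the 24 vehicle libraries of all days. This tested 7, 12 and 13 keratin probes of 12504, 13439 and 13707 on days 1, 3 and 7, and 10 of 11823 in vehicle wells. Standard errors are the log2 fold change divided by the square root of F. CPM levels use TMM factors over all libraries (14824 probes). Where a group held no count, folds are lower bounds against 3 counts over the group. Sequences came from RefSeq (GRCr8).

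All keratin probes and gene lists were chosen with earlier results of these data known. Named keratins are those that passed a filter, and from each list up to 4 genes with the smallest adjusted p for day 7 against day 1 in co-culture and up to 2 at the highest doses. Replicate numbers are plate numbers in the labels, so same-numbered libraries share a plate: their deviations from group means correlated at 0.195 (vehicle fit), 0.233, 0.196 and 0.292 (days 1, 3 and 7) on average, against -0.0647, -0.0767, -0.0517 and -0.0968 for other plates. Alternatives were DESeq2 1.42.0, RLE scaling, no filter, the plate as a block, leaving out each plate, leaving out libraries under 1000000 counts, the number of detected probes as a covariate, only the compared groups in the fit, and GW7647 on day 3 without the 3 libraries of conflicting labels. The scripts were tested on simulated data. Single values of some listed genes are not reported here.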

Additional observations from a re-analysis of the deposited data

Results flagged for a closer look

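In 18 of 53 vehicle groups of 4 libraries tested across the keratin probes, the highest or lowest library stood apart from the others by a gap beyond Dixon's 95% limit, where chance flags about 1 in 20 groups and low counts make many groups of zeros with 1 count. Of these, 7 were plate 1 libraries of days 1 and 3 of Krt20 and Krt19. Krt20 (47877) stood apart at 12.3 CPM in co-culture on day 1, 38.4 CPM in monoculture on day 3 and 44.1 CPM in co-culture on day 3, and Krt20 (48881) at 5.16 and 5.67 CPM in monoculture and co-culture on day 1. Krt19 stood apart at 1.53 and 1.01 CPM in monoculture and co-culture on day 1. Plate 1 also stood apart for Krt80 in co-culture on day 1 (11.9 CPM) and for Krt12 in co-culture on day 3 (3.45 CPM).

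The plate 7 libraries of co-culture on day 7 stood apart for Krt20 (48881, 9.18 CPM) and Krt79 (11.3 CPM). Plate 5 stood apart for Krt23 in co-culture on day 1 (0.333 CPM) and in monoculture on day 3 (2.31 CPM), for Krt79 in monoculture on day 3 (1.05 CPM) and, as the lowest library, for Krt80 in monoculture on day 7 (3.65 CPM). Plate 3 stood apart for Krt7 (38640) in monoculture on day 7 (7.49 CPM), Krt12 in monoculture on day 3 (0.669 CPM) and Krt79 in co-culture on day 3 (1.10 CPM).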

How the results depend on the processing

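No direction of a called keratin value was reversed by any alternative. Of 51 called values 13 passed under every alternative run, 38 were lost under 1 or more, and 17 of these only when a plate was left out. With RLE 51 of 51 were kept, with the replicate block (plate) 50, with DESeq2 49, without a filter 48, with the detected probes as covariate 36, and with only the compared groups 21 of 25. Without libraries under 1000000 counts 3 of 3 were kept. Without plate 1, 3, 5, 7 or 9 there remained 26 of 46, 27 of 51, 24 of 51, 34 of 51 and 13 of 16. RLE or DESeq2 scaling moved the median of all probes by over 0.1 (log2) for day 7 against day 3 (0.12), gemfibrozil 100 uM on day 1 (0.14), gemfibrozil 1000 uM on day 3 (0.116 and 0.128) and GW7647 1 uM on day 3 (0.164 and 0.168). For the counts of called keratins, the cause of each change was not tested. Day 7 against day 3 gave 5 with the plate block in monoculture and 5 by DESeq2 in co-culture instead of 3, and 0 in both cultures with the covariate. In vehicle wells that covariate did not overlap between days 3 and 7, so its losses there decide nothing. With only the compared groups, phenobarbital 10 mM gave 3 on day 1 and 1 on day 7, and ketoconazole 30 uM and gemfibrozil 1000 uM gave 2 each on day 1. Gemfibrozil 1000 uM on day 3 gave 3 with the covariate. Phenobarbital gave 9 with the plate block on day 3, and on day 7 5 by DESeq2 and 6 each with the plate block and the covariate. Gemfibrozil 100 uM on day 1 gave 0 without a filter, with the covariate and with only the compared groups. Apart from the values given with the results, the block changed no other call in the text. Leaving out each plate gave 0 to 2 (day 3 against day 1, co-culture), 3 to 7 and 3 to 8 (day 7 against day 1, monoculture and co-culture), 1 to 2 and 2 to 3 (day 7 against day 3), 0 to 1 (cultures over all exposures, day 7), 2 to 4 on day 1 for phenobarbital and gemfibrozil 1000 uM and 2 to 3 for ketoconazole, 2 to 5, 0 to 5 and 0 to 7 on day 3 in the order phenobarbital, ketoconazole, gemfibrozil, 0 to 5 for phenobarbital on day 7 and 0 to 1 for gemfibrozil 100 uM. Depth limits the keratins below about 1 CPM, whose libraries often hold few counts.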
